A study of Mus musculus with 9 samples.

Results

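Hearts of calcineurin transgenic mice (CnA, 3 arrays) were compared directly with hearts after TAC surgery (TAC, 3 arrays), so that 6 of the 9 arrays of the series entered the fit. The arrays were chosen by their titles, CnA Replicate 1 to 3 and TAC Replicate 1 to 3. Their strain is given as Myh6-CnA for CnA, a name in use for mice whose cardiomyocytes express calcineurin A from the promoter of the cardiac myosin heavy chain gene Myh6. For TAC it is given as B6SV129F1 wild-type, with TAC surgery as the description. TAC is the usual short form of transverse aortic constriction, which the labels do not spell out. The remaining 3 arrays came from B6SV129F1 wild-type hearts (WT), for which the labels name neither an operation nor a sham. They were kept out of the fit and are given below only as values. All arrays measured total RNA of cardiac tissue depleted of ribosomal RNA. The labels give no sex, age, animal identity or line and founder of the transgene, and no background strain for Myh6-CnA, so genotype, surgery and strain cannot be told apart between the groups. Nothing says that the arrays of a group came from separate animals, so the p-values measure the spread between these arrays.

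Calcineurin is a phosphatase switched on by calcium and calmodulin. It removes phosphate from NFAT transcription factors, which then enter the nucleus and act with GATA4 and MEF2 on genes of cardiac growth. Constriction of the aorta raises the load on the left ventricle, and the wall thickens under many signals at once, calcineurin among them. Long non-coding RNAs (lncRNAs) are long transcripts without an evident coding sequence, and many of them, among them the intergenic lincRNAs, are made at low levels in few cell types.

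Values are log2 of the processed probe signal minus the 75th percentile of the array, so that a value of 0 is a probe as bright as that percentile. Before scaling this percentile was 263 to 280 intensity units on the TAC arrays and 283 to 300.2 on the CnA arrays. On the WT arrays, scaled the same way, it was 427 to 454. The part of this in the WT positions given below was not tested. Between 67.6% and 75.3% of probes were well above background on a TAC array, and between 72.5% and 77.3% on a CnA array. Over the tested probes, which do not count as replicates, Pearson's r between arrays was 0.992 to 0.994 for TAC pairs, 0.983 to 0.995 for CnA pairs and 0.962 to 0.975 for pairs of a CnA and a TAC array. The first principal component held 66.9% of the variance and parted the groups, and the second, with 16.6%, set CnA replicate 3 apart from the other CnA arrays. The scanner headers give that array another scan identifier than all others, which is taken here as a second slide, the others being the first. TAC replicate 1 shared the first row of its slide with the WT arrays, whereas TAC replicates 2 and 3 and CnA replicates 1 and 2 shared the second row.

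Of 42310 tested probes, 12225 (28.9%) differed between the models at an adjusted p under 0.05 (limma, Benjamini-Hochberg over all tested probes). In CnA 6695 probes (15.8%) were higher than in TAC and 5530 (13.1%) were lower, with a median log2 fold change of -0.05 over all tested probes. Of the tested probes, 3214 met the detection filter only through the CnA arrays and 1010 only through the TAC arrays, so these counts follow in part from the filter. Among probes well above background on all 6 arrays, 5437 were called higher and 5306 lower. Of the called probes 54.8% were higher in CnA, against 49.0% with normexp background correction and 63.6% without TAC replicate 1. A difference of at least 2-fold was reached by 2868 probes (6.78%), of which 2141 were higher and 727 lower in CnA. Among probes well above background on all 6 arrays, 1213 were at least 2-fold higher and 593 lower. Larger differences were fewer and mostly upward in CnA, in counts that also include probes that met the filter through 1 model only. Among mRNA probes, 281 were at least 4-fold higher and 38 at least 4-fold lower, and 22 were at least 16-fold higher and 6 at least 16-fold lower. Among lncRNA probes these counts were 136 and 56, and 21 and 8. Within the first slide, that is without CnA replicate 3, 12518 probes were called. A block for the row gave 11490 calls, and the 4 arrays of the second row of the first slide gave 8484. The count fell to 8134 without TAC replicate 2.

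The coding and non-coding classes leaned opposite ways by count. The deposited mRNA table lists 18766 of the tested probes, of which 5979 (31.9%) were called, 3763 higher and 2216 lower in CnA. The deposited lncRNA table lists 22715, of which 5813 (25.6%) were called, 2558 higher and 3255 lower. Of the called probes 62.9% were higher in CnA among mRNA and 44.0% among lncRNA. At 2-fold or more both classes leaned to CnA, with 1197 higher and 305 lower mRNA probes and 653 higher and 379 lower lncRNA probes. With normexp background correction these counts were 410 and 178 for mRNA and 287 and 186 for lncRNA. Among probes well above background on all 6 arrays they were 739 and 283, and 474 and 312. Thus the excess of lower lncRNA probes lay among small differences: the median log2 fold change was -0.09 over the tested lncRNA probes, against 0.00071 over the mRNA probes.

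The lncRNA balance changed side under several settings, whereas the called mRNA probes were mostly higher in CnA under each of them. Without TAC replicate 1, 2 or 3, in turn, 1658, 1741 and 1849 lncRNA probes were called lower in CnA, and 53.9%, 51.6% and 54.1% of the called lncRNA probes were then higher. With a block for the replicate number 1843 lncRNA probes were higher and 1616 lower, and with no filter on dim probes 2025 and 1989. On the second row of the first slide 1994 were higher and 1868 lower, and with the row as a block 2430 and 2991. The mRNA probes lower in CnA numbered 1271, 1336 and 1404 without TAC replicates 1, 2 and 3, and 1374 on the second row, beside 2851 higher there. Among probes well above background on all 6 arrays the called probes numbered 2279 higher and 3138 lower for lncRNA, and 3155 and 2165 for mRNA. A further 829 tested probes stood in neither table. Of these, 689 met the detection filter only through the CnA arrays and 125 only through the TAC arrays, so their 374 calls higher and 59 lower in CnA follow in part from the filter.

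Probe names sort the array into families, and the share of probes called was lower in the lincRNA families than over the array as a whole (28.9%), a difference that was not tested. Probes known only by a design ID (37480 tested) were called at 30.1%, 6335 higher and 4928 lower. Mouse lincRNA exon probes (2310 tested) were called at 20.5%, with 176 higher and 298 lower in CnA and a median log2 fold change of -0.10. The probes named humanlincRNA, which stand for counterparts of human lincRNAs (653 tested), were called at 12.9%, 14 higher and 70 lower, with a median of -0.16. Mouse lincRNA probes (388 tested) were called at 13.9%, 14 higher and 40 lower, with a median of -0.13. Probes of ultraconserved regions, stretches of sequence kept identical between distant mammals (456 tested), were called at 15.1%, 29 higher and 40 lower, with a median of -0.12. GenBank cDNA probes (809 tested) were called at 24.1%, 73 higher and 122 lower, with a median of -0.13. Each of these 5 families held fewer higher than lower calls. At 2-fold or more the lean was the other way in lincRNA exons (51 higher, 36 lower), GenBank cDNAs (25 and 15) and ultraconserved regions (9 and 3). Mouse lincRNAs had 4 higher and 3 lower, and the humanlincRNA family 3 and 6. Probes that met the detection filter through 1 model only are part of these counts. Among the probes listed in the deposited lncRNA table they were, in the same order, 42 and 34, 16 and 13, 9 and 3, 1 and 2, and 3 and 5. The lean of the mouse lincRNAs thus turned there.

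The family counts also moved with single arrays. Leaving out 1 array gave 272 to 524 called lincRNA exon probes, 105 to 206 GenBank cDNAs, 30 to 103 humanlincRNA probes, 39 to 84 ultraconserved regions and 25 to 72 mouse lincRNAs, each range highest without CnA replicate 3. Without TAC replicate 1 or 2 the exon counts were 288 and 272, and the ultraconserved counts 39 and 45. Without TAC replicate 1, 2 or 3 the GenBank counts were 108, 105 and 127, the humanlincRNA counts 41, 30 and 53 and the mouse lincRNA counts 25, 25 and 28. Without CnA replicate 1 the humanlincRNA count was 50. Of the called ultraconserved probes 53.8% were higher in CnA without TAC replicate 1 and 51.1% without TAC replicate 2.

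With all tested probes included, the shares called were higher in the small families of annotated transcripts, again without a test of the difference. They were 37.9% of 95 RefSeq probes (26 higher, 10 lower), 45.2% of 62 Ensembl probes (13 higher, 15 lower) and 38.1% of 42 UCSC probes (12 higher, 4 lower). The 28 Ensembl calls dropped to 18, 16 and 18 when TAC replicate 1, 2 or 3 was left out, and to 16 when CnA replicate 1 was. Only through the CnA arrays did 18 RefSeq, 4 Ensembl and 7 UCSC probes meet the detection filter. Of the 26 RefSeq probes higher in CnA, 15 were Y chromosome genes. A fit of probes well above background on all 6 arrays called 23 of 76 RefSeq, 28 of 57 Ensembl and 11 of 35 UCSC probes. It called 11245 of all 38086 such probes. In that fit the RefSeq and UCSC shares lay near the share of all such probes, and the Ensembl share was higher. The families also differed in brightness and in precision, whose part in these shares was not tested. The median scaled log2 signal was -1.68 for humanlincRNA, -1.78 for ultraconserved and -1.64 for mouse lincRNA probes, against -0.95 for design IDs. The median standard error of the difference was 0.143, 0.134 and 0.153 log2 units in these families and 0.114 for design IDs. Within the lncRNA table itself, 4623 probes with a transcript name were called at 19.1% and 18092 with a design ID at 27.2%. The plot of calls by class and family shows the same shares by direction.

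**Figure D1:**
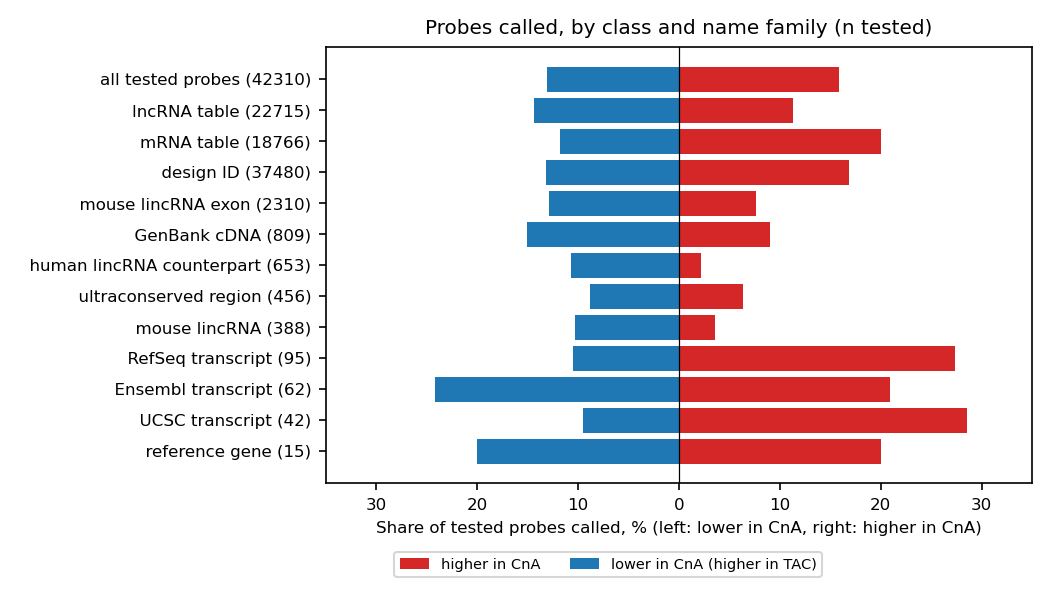
Share of tested probes called in each direction (horizontal axis, percent of the tested probes of a set; red bars to the right, higher in CnA; blue bars to the left, lower in CnA), for all probes, both classes and each probe name family, with the number tested in brackets. The mRNA table extends further to the right than to the left, the lncRNA table the other way, and the humanlincRNA family has the smallest share to the right, 14 of 653 probes.

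The leading probes of each class and family are given among those well above background on all 6 arrays, since a probe undetected in 1 model has only a bound on its fold. Design-ID probes of the mRNA table carried the largest such rises of the coding class in CnA over TAC. The files pair these IDs with no gene, so they are named by ID alone. ASMM9PARTA028870 read 9.27, 9.25 and 9.28 on the CnA arrays and -1.82, -2.04 and -1.99 on the TAC arrays, with WT arrays at -0.88, 0.86 and 1.52. The difference of 11.22 log2 units (standard error 0.08, limma adjusted p = 4.4e-07) was the largest of these, and the CnA values stood far above all other arrays. ASMM9PARTA040787 read 3.73, 3.67 and 3.83 in CnA, against -2.33, -2.44 and -2.63 in TAC and -2.42, -2.52 and -2.62 in WT. Here TAC and WT overlapped and CnA alone was high (log2 fold change 6.21, standard error 0.10, limma adjusted p = 6.6e-06). ASMM9PARTA039564 and ASMM9PARTA031210 followed, at 5.71 ± 0.09 and 5.63 ± 0.06 in CnA (SD, n = 3), 0.02 ± 0.08 and -0.05 ± 0.09 in TAC and 0.24 ± 0.83 and -0.47 ± 0.20 in WT. ASMM9PARTA030335 rose by 4.90, from -0.29 ± 0.13 in TAC to 4.61 ± 0.04 in CnA. All 5 had WT values below CnA on every array.

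Among mRNA probes detected on all 6 arrays the largest falls from TAC to CnA spanned log2 fold changes of -4.61 to -4.01. ASMM9PARTA021427 read 1.85, 1.77 and 1.88 in CnA and 6.39, 6.47 and 6.48 in TAC, with WT in between at 4.84, 4.28 and 4.21 (standard error 0.07, limma adjusted p = 6.4e-06). ASMM9PARTA024546 had the widest spread of these in CnA, at -0.95, -0.37 and -1.83, against 3.42, 3.35 and 3.47 in TAC and 2.07, 2.05 and 2.20 in WT. The other 3, ASMM9PARTA036473, ASMM9PARTA042005 and ASMM9PARTA028313, averaged -2.88, -1.42 and -1.79 in CnA and 1.16, 2.60 and 2.22 in TAC. In ASMM9PARTA036473 WT replicate 1 read -3.18 and WT replicates 2 and 3 read -0.33 and -0.63.

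Among lncRNA probes detected on all 6 arrays the largest rise in CnA was that of ASMM9PARTA051841, at 3.92, 3.96 and 4.05 in CnA and -2.97, -3.35 and -2.95 in TAC. The next, ASMM9PARTA017215, read 2.86, 2.73 and 2.82 against -2.0, -1.87 and -2.05 (log2 fold change 4.78, limma adjusted p = 6.9e-06, standard error 0.08), and its WT arrays lay between at 0.72, 0.55 and 0.06. ASMM9PARTA015071 and ASMM9PARTA005680 rose by 4.36 and 4.19, again with WT means, 0.81 ± 0.39 and -0.44 ± 0.09, between the models. ASMM9PARTA045941 was bright throughout, at 7.0 ± 0.05 in CnA, 2.91 ± 0.07 in TAC and 6.10 ± 0.77 in WT, and differed between the models by 4.08. It stood nearer to WT in CnA than in TAC.

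Of the same set, the lncRNA probes lower in CnA were led by ASMM9PARTA002349, at -3.40, -3.65 and -3.08 in CnA, 3.60, 3.62 and 3.66 in TAC and 1.74, 0.03 and 0.42 in WT (log2 fold change -7.00, standard error 0.15, limma adjusted p = 1.2e-05). ASMM9PARTA003919 read -3.53, -3.38 and -3.40 in CnA and 1.92, 1.80 and 1.92 in TAC, which is -5.31 on the log2 scale (standard error 0.08). ASMM9PARTA047832 and ASMM9PARTA018523 had log2 fold changes of -5.12 and -5.07, the latter with a wider spread in CnA (SD 0.85), and the former was -3.41 with normexp. ASMM9PARTA014436 read 0.43, 0.54 and 0.68 in CnA and 5.51, 5.45 and 5.51 in TAC. In 4 of these 10 lncRNA probes WT replicate 1 lay far from the other WT arrays: it read -0.07 against 5.02 and 4.96 for ASMM9PARTA051841, 4.35 against -0.15 and -0.32 for ASMM9PARTA014436, -3.90 against -0.12 and -0.67 for ASMM9PARTA003919, and -3.23 against -0.26 and -0.28 for ASMM9PARTA047832. The CnA and TAC arrays of these 4 probes spanned less than 1 log2 unit within each group. All 20 leading probes kept their direction and call under every alternative tried, and the range for ASMM9PARTA028870 was 10.32 to 11.33.

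**Figure D2:**
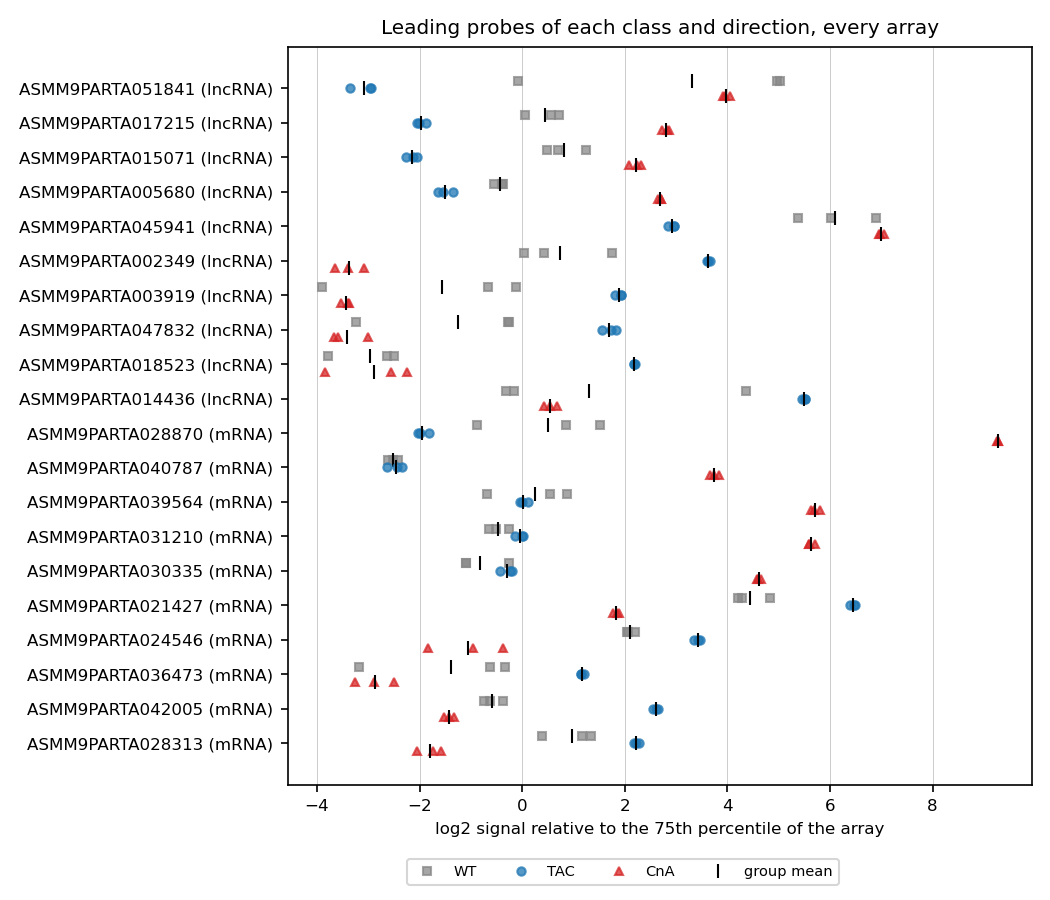
Scaled log2 signal (horizontal axis) of the 5 largest rises and 5 largest falls of each class on every array, with WT as grey squares, TAC as blue circles, CnA as red triangles and the group mean as a black tick. CnA and TAC do not overlap for any of these probes, by the rule that chose them, and the WT squares of ASMM9PARTA051841 and ASMM9PARTA014436 split into 1 array and a pair.

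Within the named families the largest differences of probes detected on all 6 arrays were smaller. MM9LINCRNAEXON10137-, a probe for the minus strand of a lincRNA exon, read 1.44, 1.32 and 1.44 in CnA and -2.29, -2.29 and -2.24 in TAC, beside -1.93, -2.50 and -2.10 in WT (log2 fold change 3.68, standard error 0.07, limma adjusted p = 8.7e-06). MM9LINCRNAEXON10432+ went the other way, at -3.21, -3.40 and -3.41 in CnA, -0.46, -0.58 and -0.45 in TAC and -4.31, -3.20 and -3.40 in WT. The model that stood apart from WT was CnA for the first and TAC for the second. The humanlincRNA2268- probe read 2.67, 2.76 and 2.62 in CnA against -0.28, -0.06 and -0.24 in TAC, a rise of 2.88, whereas humanlincRNA0635+ averaged -2.64 ± 0.44 in CnA and -1.23 ± 0.27 in TAC, or -1.41 between them.

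Among ultraconserved regions uc.471+ was 1.80 higher in CnA on the log2 scale, at 0.70, 0.56 and 0.66 against -1.20, -1.17 and -1.13, and WT was higher than both at 1.66, 2.49 and 2.55. The fall of uc.436- by 1.48 took it from 1.83 ± 0.05 in TAC to 0.35 ± 0.14 in CnA, where it overlapped WT (0.21 ± 0.21). In the mouse lincRNA family mouselincRNA1235- rose by 1.14 and mouselincRNA0158+ fell by 1.33, the latter with a CnA array far from the others (-2.66, -2.70 and -3.84). Its call was lost without any single TAC array, where the adjusted p over the alternatives reached 0.084. The GenBank cDNAs AK029714 and CR518734 differed by 2.29 and -2.17, at 0.17 ± 0.06 and -3.05 ± 0.09 in CnA and -2.12 ± 0.11 and -0.89 ± 0.18 in TAC. The Ensembl transcripts ENSMUST00000091289 and ENSMUST00000166295 differed by 2.03 and -1.09, and the UCSC transcripts uc008ork.1 and uc008dxc.1 by 2.11 and -0.82 (the largest limma adjusted p of the 4 was 0.0018). Under normexp background correction, whose added offset shrinks log2 differences of dim probes, all kept their direction and call, and MM9LINCRNAEXON10432+, AK029714, CR518734, humanlincRNA0635+ and mouselincRNA0158+ differed by -1.57, 1.51, -1.12, -0.76 and -0.67. The transcript uc008ork.1 ordered the groups as WT 2.59 ± 0.11, CnA 1.55 ± 0.10 and TAC -0.56 ± 0.05, with no overlap.

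Opposite strands of the same locus could be set against each other for 953 pairs of plus and minus probes, both well above background on all 6 arrays. The difference between the strands changed between CnA and TAC in 63 pairs (6.61%; limma on the plus minus minus signal per array, Benjamini-Hochberg over the pairs), with the plus strand relatively higher in CnA in 38 and relatively lower in 25. Mouse lincRNA exons gave 51 of the 63, out of 641 pairs. At the level of single probes both strands were called in 33 pairs, 23 in the same direction and 10 in opposite directions, while 283 pairs had 1 strand called and 637 neither. Across the 953 pairs, which share their arrays, the fold changes of plus and minus probes had a Pearson r of 0.0077, given as a description.

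The locus with the largest strand difference was MM9LINCRNAEXON10137. Its minus probe carried the rise given above, whereas its plus probe read 0.57, 0.65 and 0.76 in CnA and 0.60, 0.62 and 0.78 in TAC, so that CnA and TAC overlapped on that strand (strand difference -3.69, standard error 0.14, limma adjusted p = 3.5e-05). At humanlincRNA2268 the minus probe rose and the plus probe read -1.23, -1.38 and -1.89 in CnA and -1.06, -1.20 and -1.36 in TAC, a strand difference of -3.17. At MM9LINCRNAEXON10432 the plus probe fell by 2.84 and the minus probe, at 0.48 above TAC, was not called (limma adjusted p = 0.37). MM9LINCRNAEXON11880 showed the reverse, with a minus probe that differed by -1.41 and a plus probe at 0.79 that was not called.

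MM9LINCRNAEXON11950 and MM9LINCRNAEXON10248 had plus probes 1.45 and 2.33 higher in CnA and minus probes that were not called. The strand calls of MM9LINCRNAEXON10137, humanlincRNA2268, MM9LINCRNAEXON10432 and MM9LINCRNAEXON11880 held in all 10 alternatives run, that of MM9LINCRNAEXON11950 in 9 and that of MM9LINCRNAEXON10248 in 6. The number of pairs called moved widely with single arrays. It was 20 without TAC replicate 1, 9 without TAC replicate 2 and 17 without TAC replicate 3. It was 18 without CnA replicate 1, 39 without CnA replicate 2 and 112 without CnA replicate 3, which is the count within the first slide. The plot of paired strands shows that the called pairs lie mostly along the axes, where only 1 strand differs.

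**Figure D3:**
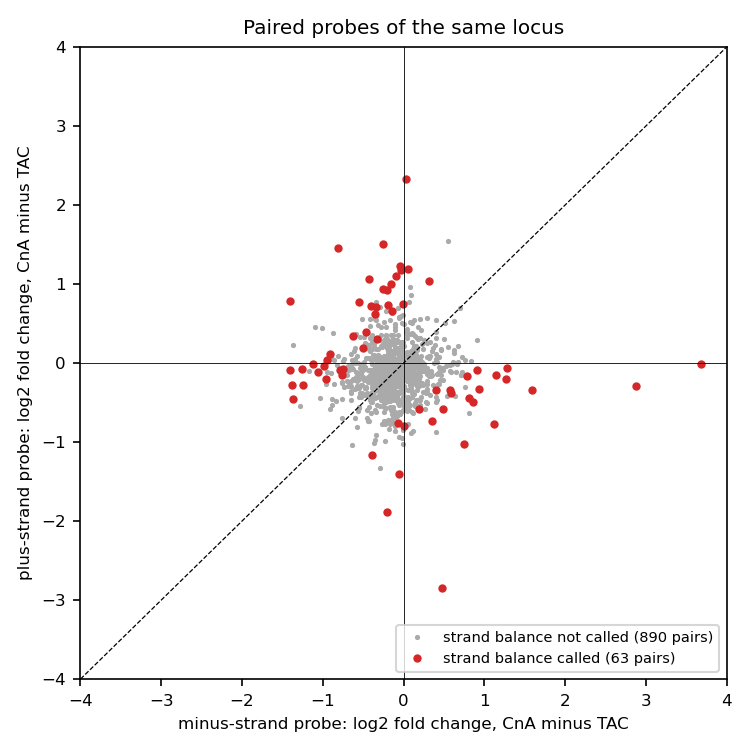
Log2 fold change, CnA minus TAC, of the minus-strand probe (horizontal axis) and the plus-strand probe (vertical axis) of 953 loci. Red points are the 63 pairs whose strand balance was called, grey points the other pairs, and the dashed line marks equal change; the red point farthest to the right is MM9LINCRNAEXON10137 at 3.68 and -0.01.

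Some transcripts were detected in only 1 of the models. On all 3 CnA arrays and no TAC array 696 probes were well above background, and on all 3 TAC arrays and no CnA array 70 were. For such a probe the fold is only a lower bound, for which each array of the undetected group was given the lowest signal called well above background on it, or the probe's own signal where that was higher. The median bound was 1.52-fold for the CnA probes and 1.72-fold for the TAC probes. It reached 2-fold for 192 and 21 of them, and 4-fold for 48 of the CnA probes and 5 of the TAC probes. No p-value is given for these probes, since they met the detection filter only through the group where they are high. ASMM9PARTA030591 read 4.49, 4.37 and 4.45 in CnA and was not well above background in TAC, where it measured -4.62 ± 0.56. It was thus at least 273-fold higher in CnA. ASMM9PARTA007272 was at least 215-fold higher, with 4.17, 4.20 and 3.90 in CnA, a TAC mean of -5.07 ± 0.74 and no WT array well above background. The mRNA probe ASMM9PARTA032888 was at least 113-fold higher (3.17 ± 0.08 in CnA, -4.73 ± 0.84 in TAC).

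In the other direction ASMM9PARTA045343 was at least 48.2-fold higher in TAC, at 1.69, 1.69 and 1.71 against -5.54 ± 0.59 in CnA. The lincRNA exon probe MM9LINCRNAEXON10811- was at least 16.8-fold higher in TAC (0.18 ± 0.34 against -4.61 ± 0.94), and ASMM9PARTA033515 at least 15.6-fold (0.08 ± 0.06 against -5.75 ± 0.40). Of the 696 probes detected in CnA alone of the models, 389 were also well above background on all WT arrays and 163 on no WT array. For the 70 TAC probes these counts were 28 and 12. Of the 696 probes, 640 had a design ID and 9 a RefSeq name, 8 of these 9 on the Y chromosome. Of all 59709 probes, 51842 had a design ID and 108 a RefSeq name. TAC replicate 2 had the lowest share of probes above background, and the part of overall brightness in these counts was not tested.

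The reference genes are printed in 20 spots each, and the array pairs them with gene names, so that their values carry a known biology. Of 15 such genes 3 were higher and 3 lower in CnA than in TAC, beside 15.8% and 13.1% of all tested probes. Hsp90ab1, the constitutive cytosolic chaperone HSP90 beta, read 5.25, 5.14 and 5.20 in CnA and 3.72, 3.71 and 3.81 in TAC. The CnA values lay above TAC and below WT (6.51, 6.67 and 6.73) without overlap (log2 fold change 1.45, standard error 0.07, limma adjusted p = 0.0001). Tbp, the TATA-binding protein of basal transcription, read -0.60, -0.67 and -0.83 in CnA and -1.45, -1.39 and -1.37 in TAC, with WT highest at -0.17, 0.37 and 0.35 (log2 fold change 0.70, standard error 0.08, limma adjusted p = 0.0021). With normexp its difference was 0.44 and still called. Gusb, the lysosomal beta-glucuronidase, was 0.41 higher in CnA (2.54 ± 0.04 against 2.13 ± 0.03).

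B2m, the light chain of MHC class I molecules, was lower in CnA, at 7.35, 7.24 and 7.31 against 8.11, 8.09 and 8.23 (log2 fold change -0.85, standard error 0.08, limma adjusted p = 0.00068). In WT it read 8.19, 7.03 and 6.73, which spanned both models. Its call was lost in the fit with all 9 arrays, where the adjusted p was 0.11. Actb, cytoplasmic beta-actin, fell by 0.50, from 5.10 ± 0.05 in TAC to 4.60 ± 0.05 in CnA. Tuba1b, an alpha-tubulin of microtubules, was 9.02 ± 0.06 in TAC and 8.77 ± 0.01 in CnA. This difference of -0.25 turned to 0.02 under quantile normalization and 0.03 with normexp as well, and its call was lost without any 1 of the 6 arrays.

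The other 9 reference genes were not called. Nono, a paraspeckle protein, differed by 0.23 (limma adjusted p = 0.057) and Ppia, the peptidyl-prolyl isomerase cyclophilin A through which ciclosporin inhibits calcineurin, by 0.21 (limma adjusted p = 0.097). Both were called under quantile normalization and under normexp, with the same direction. Gapdh, the glycolytic dehydrogenase, read 10.35 ± 0.01 in CnA and 10.52 ± 0.04 in TAC, and its difference of -0.18 turned to 0.01 under quantile normalization. Ldhal6b, Gk, Rpl13a and G6pd2 differed by 0.22, 0.16, 0.14 and 0.14, and Tfrc and Hprt by -0.10 and -0.14. Of the genes of calcineurin signalling, cardiac hypertrophy, fibrosis, metabolism and cell type markers listed for this comparison, only Hsp90ab1 and Ppia could be paired with a probe, so the transgene and the tissue label could not be checked against marker genes.

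For Tbp and B2m, the reference genes with the largest rise and fall that have a promoter in the RefSeq table of build GRCm38.p6, the promoter is shown because NFAT factors, the targets of calcineurin, bind the core GGAAA. Each window runs from 250 bases before to 50 after the gene start, 5′ to 3′ on the gene's strand, with GGAAA or its reverse complement TTTCC in capitals. Tbp lies on the plus strand at chr17:15499638-15499937 and its window holds 2 such words, and B2m lies on the plus strand at chr2:122147437-122147736 and holds 1. Of the 32851 RefSeq promoter windows, 61.3% hold at least 1 of these words, so their presence is a description of the letters only.
Tbp: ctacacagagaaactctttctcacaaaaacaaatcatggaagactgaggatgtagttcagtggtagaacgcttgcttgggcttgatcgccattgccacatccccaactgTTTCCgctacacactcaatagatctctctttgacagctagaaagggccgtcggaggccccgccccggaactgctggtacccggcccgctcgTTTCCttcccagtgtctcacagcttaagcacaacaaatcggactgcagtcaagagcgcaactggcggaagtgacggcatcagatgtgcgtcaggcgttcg
B2m: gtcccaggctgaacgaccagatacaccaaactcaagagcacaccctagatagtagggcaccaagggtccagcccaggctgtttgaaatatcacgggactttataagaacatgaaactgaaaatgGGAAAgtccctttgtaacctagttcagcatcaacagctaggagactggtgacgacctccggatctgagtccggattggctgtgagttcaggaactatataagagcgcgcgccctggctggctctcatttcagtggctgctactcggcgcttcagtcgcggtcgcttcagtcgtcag

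**Figure D4:**
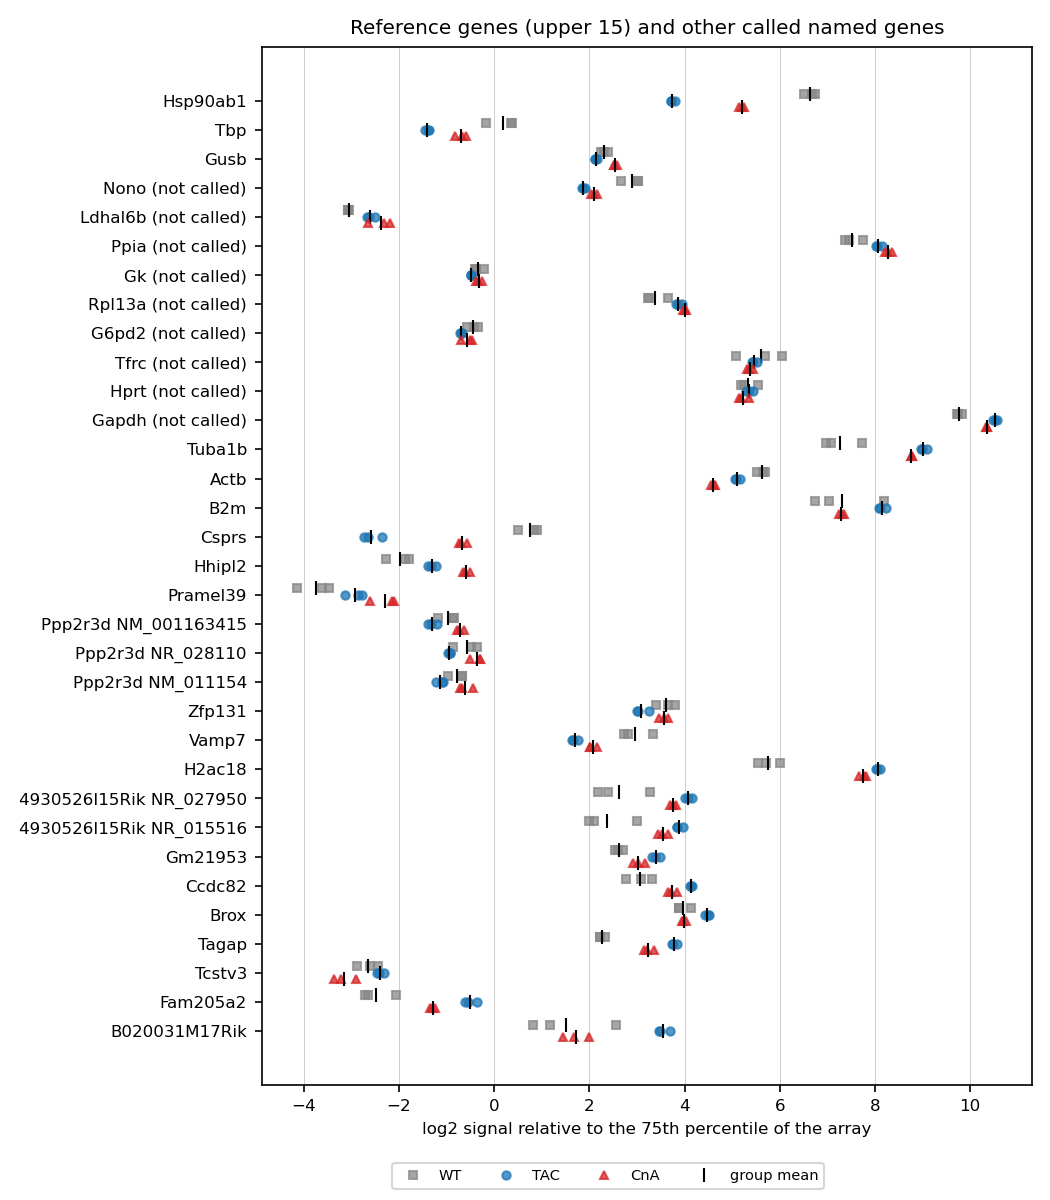
Scaled log2 signal (horizontal axis) of the 15 reference genes, ordered by their difference between CnA and TAC, and below them the other called named genes outside the Y chromosome, on every array, with WT as grey squares, TAC as blue circles, CnA as red triangles and the group mean as a black tick. Hsp90ab1 shows CnA between TAC and WT with no overlap, and H2ac18 shows both models above WT at 7.75 and 8.06 against 5.75.

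Other genes with a RefSeq name differed in both directions. Of 103 tested probes with a symbol, reference genes included, 27 were higher in CnA, 13 lower and 63 not called. Over all tested probes 15.8% were called higher and 13.1% lower. Of the 27, 15 were Y chromosome genes, and 14 of 21 tested Y genes met the detection filter only through the CnA arrays. Among the others, 11 of 70 autosomal and 1 of 12 X chromosome probes were higher. Outside the Y chromosome Csprs had the largest rise, with -0.56, -0.69 and -0.75 in CnA, -2.65, -2.74 and -2.37 in TAC and 0.84, 0.90 and 0.50 in WT, so that CnA lay between TAC and WT. Its log2 fold change was 1.92 (standard error 0.12, limma adjusted p = 0.00021). The 3 probes of Ppp2r3d, a regulatory subunit of protein phosphatase 2A, were all higher in CnA, by 0.60, 0.57 and 0.53, at -0.71 ± 0.08, -0.37 ± 0.12 and -0.61 ± 0.15 in CnA and -1.31 ± 0.09, -0.94 ± 0.02 and -1.14 ± 0.08 in TAC. They may share sequence and are not independent measures. The probe that rose by 0.53 lost its call without TAC replicate 1. Hhipl2 rose by 0.72, Pramel39 by 0.64, the zinc finger gene Zfp131 by 0.47 and Vamp7, a SNARE of vesicle fusion, by 0.38. With normexp Csprs, Hhipl2, Pramel39 and the outer 2 Ppp2r3d probes differed by 1.06, 0.44, 0.16, 0.37 and 0.32, and of these only the call of Pramel39 was lost. The calls of Pramel39, Zfp131 and Vamp7 were lost without TAC replicate 1, TAC replicate 2 or CnA replicate 1, and that of Pramel39 also without TAC replicate 3 or CnA replicate 2.

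The falls in CnA were led by B020031M17Rik, at 1.68, 2.00 and 1.45 in CnA, 3.69, 3.48 and 3.47 in TAC and 2.57, 1.16 and 0.81 in WT (log2 fold change -1.84, standard error 0.16, limma adjusted p = 0.00056). Tagap, a GTPase-activating protein of T-cell activation, read 3.21, 3.15 and 3.36 in CnA and 3.83, 3.76 and 3.73 in TAC, both above WT at 2.23, 2.23 and 2.32 (log2 fold change -0.54, standard error 0.08, limma adjusted p = 0.0058). H2ac18, a replication-dependent histone H2A gene, was 7.75 ± 0.07 in CnA, 8.06 ± 0.03 in TAC and 5.75 ± 0.23 in WT, so that both models stood more than 1 log2 unit above WT while differing from each other by -0.31. That difference was -0.14 and not called under quantile normalization, and its call was also lost without any of the 3 TAC arrays or CnA replicate 1. Fam205a2, Tcstv3 (-0.40 with normexp), Brox, Ccdc82 and Gm21953 fell by 0.78, 0.76, 0.49, 0.40 and 0.37, and the 2 probes of 4930526I15Rik by 0.34 and 0.33. The calls of Gm21953 and of both probes of 4930526I15Rik were lost without any of TAC replicates 1 to 3 or CnA replicates 1 and 2.

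Genes of the Y chromosome were grouped after their values were seen, so their values are a description. The mouse Y carries many near-identical copies of genes such as Ssty1, Ssty2 and Sly, which are known for expression in developing sperm. Of 23 such genes with a probe, 21 were tested, and 15 were called higher in CnA than in TAC (15.8% of all tested probes were called in that direction), while 6 were not called. On the X chromosome 1 of 12 tested probes was higher and the others were not called, and on the autosomes 11 of 70 were higher and 13 lower. Of the 15, 14 met the detection filter only through the CnA arrays. A probe that passes in this way had to be high in CnA: of all 3214 such probes 39.1% were called higher in CnA. Of the 7 Y genes well above background on all 6 arrays, 1, Gm20806, was called higher, beside 14.3% of all 38086 such probes.

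Ssty1, a spermiogenesis gene in many Y copies, read -1.74, -1.63 and -1.83 in CnA, -4.22, -3.86 and -3.98 in TAC and -3.94, -3.53 and -4.02 in WT. No TAC array was well above background, so the difference is given as at least 3.79-fold. Ssty2 read -2.06, -2.02 and -1.68 in CnA against -3.16, -3.69 and -3.56 in TAC and -4.16, -4.56 and -4.93 in WT (log2 fold change 1.55, standard error 0.18). Sly, which encodes a spermatid protein related to the synaptonemal complex protein SYCP3, read -2.11, -2.01 and -2.17 in CnA, -3.83, -3.43 and -4.09 in TAC and -3.86, -2.65 and -2.80 in WT, and differed by 1.69 on the log2 scale (standard error 0.17). In all 3 genes CnA was high on each array, and TAC overlapped WT in Ssty1 and Sly.

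A further 7 Y genes were not well above background on any TAC array, with lower bounds of 1.67-fold to 3.11-fold. Among these were Gm20917, at -2.30, -2.74 and -2.51 in CnA and -6.19, -5.72 and -5.94 in TAC (at least 2.20-fold), and Gm20867, at -2.06, -2.41 and -2.15 against -4.87, -5.72 and -5.94 (at least 2.73-fold). Over the 15 genes the CnA arrays read between -3.16 and -0.83, and in each gene every CnA array was above every TAC and every WT array. The 15 were taken as called higher in CnA, so their separation from TAC follows in part from that choice. Values of CnA and TAC did not overlap in 47.3% of all tested probes, called or not. On WT arrays 9 of the 15 were never well above background and 3 were on all.

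The 6 Y genes that were not called had TAC means of -2.19 to 0.32, against -5.98 to -1.90 for the 15 called. Gm20854 read 0.41, 0.36 and 0.52 in CnA, 0.27, 0.28 and 0.42 in TAC and -0.07, -0.72 and -0.35 in WT. Gm20738 averaged 0.05 ± 0.07 in CnA, 0.14 ± 0.02 in TAC and 0.62 ± 0.05 in WT, and Gm20823 -0.56 ± 0.11, -0.41 ± 0.10 and -0.15 ± 0.23. These genes were well above background on all 9 arrays, TAC and WT included. The CnA means of the 15 called genes, -2.92 to -1.02, can be set beside those of the 5 negative control probes that gave signal on all 9 arrays, -2.99 to -1.29. All but Gm20806 (-1.13) and Gm20747 (-1.02), which were higher, lay within that range. Each of these 5 controls was lower in CnA than in TAC. The labels give no sex for any group, and whether the groups differed in it was not tested. The files do not show which copies a probe binds, so the values of near-identical copies cannot be assigned to single genes. The count of 15 was 15 within the second row of the first slide and with a row block, and 16 without CnA replicate 3.

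The promoters of these copies show how alike they are. Of the 23 genes 20 have a window in the RefSeq table, and 12 of their 190 pairs matched at 80% or more of the 300 positions compared in order without gaps. The windows of Gm20867 and Gm20816 were identical, and Gm20815 differed from both at 5 positions. All 3 genes were undetected in TAC. The windows of Gm20917, Gm20806 and Gm20854 matched one another at 98.7% to 99.0% of positions, as printed below. Their probes were at least 2.20-fold higher in CnA for Gm20917, and 0.78 and 0.11 higher on the log2 scale for Gm20806 and Gm20854, the last not called. Each window is on the minus strand of the Y chromosome in build GRCm38.p6, from 250 bases before to 50 after the gene start. Gm20867 is at chrY:77963155-77963454 and Gm20815 at chrY:8835120-8835419, with the bases of Gm20815 that differ from Gm20867 in capitals.
Gm20867: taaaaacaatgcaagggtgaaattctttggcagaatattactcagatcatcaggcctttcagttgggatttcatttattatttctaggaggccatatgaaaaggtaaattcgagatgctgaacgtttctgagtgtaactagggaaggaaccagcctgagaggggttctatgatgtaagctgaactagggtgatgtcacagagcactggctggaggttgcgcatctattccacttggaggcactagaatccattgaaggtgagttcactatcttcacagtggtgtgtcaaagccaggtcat
Gm20815: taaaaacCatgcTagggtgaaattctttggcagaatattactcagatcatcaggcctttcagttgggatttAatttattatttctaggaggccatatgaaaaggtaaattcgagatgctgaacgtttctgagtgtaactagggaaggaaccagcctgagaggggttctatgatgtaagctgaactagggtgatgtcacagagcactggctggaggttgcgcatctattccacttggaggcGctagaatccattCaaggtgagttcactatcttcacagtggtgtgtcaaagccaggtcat

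Gm20917 is at chrY:79149738-79150037, Gm20806 at chrY:78836670-78836969 and Gm20854 at chrY:85529470-85529769. They are shown so that the near-identical windows of these 3 genes can be compared, and the bases that differ from Gm20917 are in capitals, 3 in each.
Gm20917: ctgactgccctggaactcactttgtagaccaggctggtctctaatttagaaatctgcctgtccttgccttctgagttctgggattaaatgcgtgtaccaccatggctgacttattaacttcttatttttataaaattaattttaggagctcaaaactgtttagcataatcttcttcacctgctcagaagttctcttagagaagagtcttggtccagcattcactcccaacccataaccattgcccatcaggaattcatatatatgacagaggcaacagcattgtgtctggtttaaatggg
Gm20806: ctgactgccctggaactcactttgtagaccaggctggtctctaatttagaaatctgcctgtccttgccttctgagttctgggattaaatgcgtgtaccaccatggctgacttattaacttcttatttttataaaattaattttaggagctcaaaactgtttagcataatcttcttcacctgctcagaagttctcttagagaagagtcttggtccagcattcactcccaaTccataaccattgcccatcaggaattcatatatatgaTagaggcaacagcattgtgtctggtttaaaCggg
Gm20854: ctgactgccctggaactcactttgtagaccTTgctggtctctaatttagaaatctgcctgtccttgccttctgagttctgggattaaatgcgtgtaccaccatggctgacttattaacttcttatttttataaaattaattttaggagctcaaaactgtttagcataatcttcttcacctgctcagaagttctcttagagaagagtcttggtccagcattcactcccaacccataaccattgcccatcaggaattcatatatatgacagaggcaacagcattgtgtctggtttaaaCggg

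**Figure D5:**
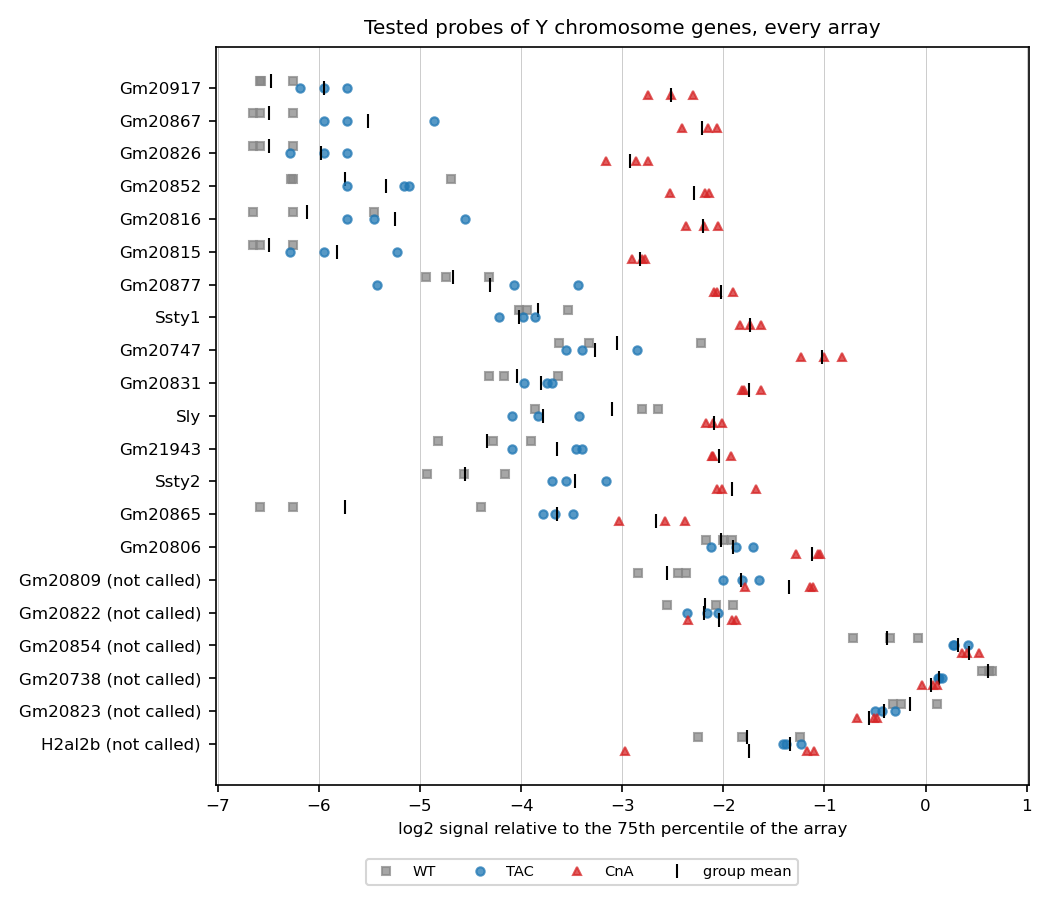
Scaled log2 signal (horizontal axis) of the 21 tested Y chromosome genes on every array, ordered by the difference between CnA and TAC, with WT as grey squares, TAC as blue circles, CnA as red triangles and the group mean as a black tick. In the upper 15 genes, those called higher in CnA, every CnA triangle lies to the right of every TAC circle and WT square. In the lower 6, marked as not called, the models lie close together or overlap.

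Set beside the WT arrays, the probes that separate the models fell on both sides of the wild-type level. Of 2140 probes at least 2-fold higher in CnA than in TAC and measured in WT, the WT mean was above both models in 49.3%, between them in 25.1% and below both in 25.6%, and it was nearer to CnA in 60.7%. Among the mRNA probes of this kind (1197) the WT mean was above both models in 61.7%, and among the lncRNA probes (652) in 47.2%. Of 725 probes at least 2-fold lower in CnA, the WT mean was below both models in 45.7%, between them in 42.1% and above both in 12.3%, and nearer to CnA in 71.2%. The models were chosen here for differing from each other, and WT was not part of the fit, so these shares describe positions and carry no test. Hsp90ab1 and uc.471+, given above, are examples of a WT level above both models, and MM9LINCRNAEXON10432+ of a WT mean below both, with WT arrays that overlapped CnA.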

How the data were processed

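Cardiac RNA had been hybridised to 1-colour Agilent arrays. The labels name Cy3 and Cy5 for each sample, but the scanner files hold the green channel only. The deposited scanner files give the processed signal, a linear intensity that Feature Extraction 11.0.1.1 had corrected for background, per the file headers, with flags for signal above background. The authors' deposited lncRNA and mRNA tables give log2 values (medians of 7.33 to 7.35 per array), which were used for the class of a probe and as an alternative. How the authors made these tables is not given in the sources used here. The scanner headers name the build mm9, and no coordinate of it was used.

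Of 62513 features, 59709 probes remained after control spots were left out, and 114 more with an outlier flag on a CnA or TAC array were not fitted. No spot was saturated. A probe was tested when well above background on all 3 arrays of CnA or of TAC. Signals were scaled to the 75th percentile of the array on the log2 scale, and the 6 arrays were fitted with limma 3.58.1 in R 4.3.3 (lmFit, eBayes), with adjusted p under 0.05 as a call. The test was run on simulated data first. The number of arrays limits the precision. The members and lists were chosen with earlier results of these data known. Probes named in the text are, among called probes detected on all 6 arrays with non-overlapping groups, the 5 largest rises and falls of each class, the largest of each family with at least 10 tested probes, and the probes with a symbol (up to 10 each way), together with all reference genes, the 3 largest bounds and the 3 largest strand changes each way. Y chromosome genes were added after their values were seen. Symbols and promoters came from RefSeq tables of GRCm38.p6, and 116 of 123 accessions matched a symbol. The alternatives were the fit with all 9 arrays, quantile normalization, normexp (offset 50), both, median scaling, the deposited tables, other detection filters, a 2-fold threshold, array weights, a trended and robust prior, blocks for replicate number and row, and leaving out each array.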

Additional observations from a re-analysis of the deposited data

Results flagged for a closer look

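Of 20 negative control probes with 60 spots each, which entered no fit, 5 were well above background on all 9 arrays and 11 on none. In 3 of the 5, all CnA and TAC arrays lay above all WT arrays. MM9NEGATIVE019 averaged -2.99 ± 0.21 in CnA and -2.69 ± 0.07 in TAC, against -3.43 ± 0.13 in WT (scaled log2 signal, SD, n = 3). MM9NEGATIVE018 averaged -2.34 ± 0.03 in CnA and -2.22 ± 0.04 in TAC, against -2.99 ± 0.13 in WT. MM9NEGATIVE013 averaged -2.30 ± 0.01 in CnA and -2.23 ± 0.05 in TAC, against -2.77 ± 0.04 in WT. The means of all 5 were lower in CnA than in TAC. Their part in the results for dim probes was not tested.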

How the results depend on the processing

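Of 347 recomputed counts 248 lay within 1.5 times of the reported one, 94 were lower and 5 higher. Of 1413 recomputed fold changes of named probes 1271 kept direction and call, 127 lost the call, 12 gained one and 3 turned: Gapdh (0.01) and Tuba1b (0.02) under quantile normalization and Tuba1b (0.03) with normexp as well. The cause of the turns was not tested. In the order of probes called, lncRNA higher, lncRNA lower, mRNA higher, mRNA lower and probes with a transcript name (956 reported), adjusted p with 2-fold gave 2868, 653, 379, 1197, 305 and 182, and unadjusted p with 2-fold gave 3014, 671, 432, 1231, 316 and 207, by the stricter threshold itself. The fit of all 9 arrays gave 7800 called, 1794 and 1336 lower lncRNA and mRNA probes and 579 with a transcript name. With no filter on dim probes 2025 lncRNA probes were higher and 1989 lower, which turns the lean of 2558 and 3255. On the second row of the first slide, chosen after seeing the data, 1868 lncRNA probes were lower and 1994 higher, with 1374 mRNA probes lower. Leaving out 1 array gave 8134 to 12518 called, 1858 to 2591 and 1658 to 3535 lncRNA probes higher and lower, 2844 to 3623 and 1271 to 2349 mRNA probes, 535 to 1069 with a transcript name, 14 to 16 Y chromosome genes and 9 to 112 strand pairs. Normexp gave 109 strand pairs. Detection on all 6 arrays left 1 called Y chromosome gene of 7 tested. The 14 called genes that met the filter only through the CnA arrays were then not tested. Detection on 2 of 3 arrays gave 1306 probes in CnA alone and 274 in TAC alone.

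Same-numbered arrays did not deviate together (correlations -0.09 to -0.02). With 3 arrays a group this cannot decide whether the numbers pair the arrays. The replicate block gave 7936 probes, 1843 higher and 1616 lower lncRNA probes, which turns their lean, 1273 lower mRNA probes, 539 with a transcript name and 12 strand pairs, with fewer degrees of freedom. No gene of the pathways that define both models could be named, and 3 arrays a group on partly separate slides limit the precision.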
